A study of Drosophila melanogaster with 18 samples.

Results

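Haploid and diploid Drosophila melanogaster embryos were compared late in the interphase in which the blastoderm cellularizes, at a matched ratio of nuclei to cytoplasm. The comparison rests on 6 of the 18 arrays, chosen by their titles: 3 of late cycle 15 haploid embryos and 3 of late cycle 14 wild-type embryos. The haploid embryos came from maternal haploid mothers and the diploid embryos from w flies, and both parent stocks carried histone H2-GFP. Flies were kept at 25 C. Each array holds total RNA of about 50 whole embryos, picked by hand under fluorescence and frozen 40 min after a division, that of cycle 14 in haploids and that of cycle 13 in diploids. The labels call the 3 arrays of a group biological replicates. The age of the mothers and the sex of the embryos are not stated. A haploid embryo has 1 genome copy per nucleus in place of 2 and passes 1 more division, which brings its ratio to that of a diploid 1 cycle younger. Parental genotype, ploidy and the number of divisions passed all differ between the groups, and their parts in a difference cannot be told apart. The other 12 arrays cover both genotypes 25 min earlier in the same interphase and in the cycle before it.

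An early fly embryo divides its nuclei in a common cytoplasm on proteins and RNAs that the mother loaded into the egg. Over the last of these divisions the cell cycle lengthens, many maternal RNAs are degraded and the zygotic genome is transcribed, a set of changes called the maternal-to-zygotic transition. In wild-type embryos the long interphase of cycle 14 is when membranes grow between the nuclei and the segments and germ layers are patterned. Haploids are known to add a division before this pause, and the design asks which transcripts follow the nuclear to cytoplasmic ratio and which do not.

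The values are array intensities, scaled so that all 18 arrays share 1 distribution. A probe set was treated as above background when its intensity passed 31.95, the level that 95% of negative control readings stay under. Between 38.4% and 38.5% of probe sets passed it on each of the 6 arrays, an evenness that the shared distribution fixes in advance. Before scaling, the mean intensity after trimming 2% at each end was 167.4 to 196.5 on the haploid arrays. On the diploid arrays it was 201.5 to 208.6. Replicates correlated at 0.985 to 0.987 within a group and at 0.932 to 0.948 between the groups, over 7334 probe sets above background. As a check of the tissue, all 5 measured trunk gap genes, all 8 pair-rule genes and all 17 cellularization genes of the blastoderm were above background on all 6 arrays. Those levels do not tell late interphase from the earlier stages. Of 13 genes of the mother's tissues, 0 were above background on all 6 arrays and 1 was called lower in haploids, and their summed intensity was 185.1 to 221.9 in haploids and 196.8 to 211.9 in diploids. Ploidy itself has no check in these values. Of the control probe sets, the one in the central part of 18S ribosomal RNA stood apart, at 987 ± 289 in haploids and 342 ± 44.9 in diploids (SD, n = 3), and the GAPDH 3' control at 49.2 ± 11.4 and 147 ± 16.5. The 18S 5' control was also apart, at 141 ± 77.7 and 40.7 ± 1.11. For the 18S 3' control, at 299 ± 140 and 140 ± 23.2, the groups overlapped. The part that these controls have in the results was not tested.

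At a matched ratio a minority of transcripts were called different between late haploid and late diploid embryos. Of 14560 probe sets tested, 3058 (21.0%) were called at an adjusted p below 0.05 (limma, Benjamini-Hochberg over all tested probe sets), 1363 higher and 1695 lower in haploids. At the level of genes, taking the brightest probe set of each, 2549 of 10035 (25.4%) were called, 1121 (11.2%) higher and 1428 (14.2%) lower. Of these, 224 and 462 differed by 2-fold or more. The called share was larger once dim genes were set aside. Of 5921 genes above background on at least 3 of the 6 arrays, 2416 were called, 1085 (18.3%) higher and 1331 (22.5%) lower. Among 5213 genes above background on all 6 arrays, the 95% interval of the difference lay within 2-fold in 79.2% and wholly beyond 2-fold in 3.47%. Over all 10035 tested genes, dim ones included, these shares were 44.6% and 2.97%. In whole embryos, fewer cells of a type and less RNA per cell cannot be told apart.

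The balance of higher and lower calls depended on the scaling of the arrays. Of the called probe sets, 44.6% were higher under quantile scaling, 37.2% after centring on the median and 32.5% after centring on ribosomal protein genes. The share was 16% on the deposited scale (343 higher, 1796 lower) and 11.8% after centring on spiked poly-A controls (185 higher, 1378 lower). The median difference of all tested probe sets was log2 0.02 under quantile scaling, -0.15 on the deposited scale and -0.20 with poly-A centring. In the text, medians of lists and chromosome arms are therefore given relative to the median of all genes. The differences and calls of single genes are those of quantile scaling, without that correction. Over the scalings the number of higher calls ran from 185 to 1363, and that of lower calls from 1378 to 1796. Fitted on the 6 late arrays alone, 1767 were higher and 1624 lower (52.1% higher), and with intensities floored at 16 the share was 49.6%.

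Many transcripts that the mother lays down to set up the body axes were lower in the haploid embryos. Of 18 measured maternal axis determinants, 0 were called higher and 11 lower, against 11.2% and 14.2% of all genes, and their median difference was log2 -0.82 relative to all genes. The posterior determinant osk, whose product builds the germ plasm, read 44.5, 35.6 and 48.4 on the haploid arrays and 177.5, 131.1 and 154.3 on the diploid arrays. All 3 haploid arrays lay under all diploid ones (log2 -1.85 ± 0.19 SE, adjusted p = 4.9e-08). The anterior determinant bcd read 71.6, 184.9 and 84.7 in haploids and 280.9, 342.5 and 378.1 in diploids (log2 -1.67 ± 0.20, adjusted p = 5.3e-07). The haploid arrays spread widely for bcd, with replicate 2 above the other two, yet they did not reach the diploid range.

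The factors that carry these RNAs to their places followed the same direction. The transcript of swa, which anchors bcd RNA, read 42.3, 49.7 and 55.7 in haploids against 138.7, 173.9 and 171.2 in diploids (log2 -1.71 ± 0.12, adjusted p = 2.2e-10). The dynein adaptor gene BicD read 180.4, 193.3 and 175.0 against 520.1, 567.1 and 580.3 (log2 -1.60 ± 0.08, adjusted p = 6e-13). Neither gene's groups overlapped. The other members called lower were exu, spz, tor, cad, hb, grk and gcl, with differences from log2 -0.40 for hb to -1.23 for exu. Of these, hb is also counted among the trunk gap genes and cad among the terminal and gut genes. The arrays do not separate maternal from zygotic transcripts of a gene. The call for hb was lost when any of 5 of the 6 arrays was left out in turn, and that for cad without diploid late cycle 14 replicate 3 (log2 -0.32). The number called lower stayed between 9 and 14 under every alternative tried.

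Many regulators of maternal RNA stability and translation were lower as well. Of 16 measured members, 10 were called lower and 1 higher, against 14.2% and 11.2% of all genes. Their median was log2 -0.66 relative to all genes. The translational repressor gene BicC read 53.6, 46.2 and 58.0 in haploids and 192.2, 112.0 and 165.6 in diploids (log2 -1.55 ± 0.17, adjusted p = 2.1e-07). The cytoplasmic poly(A) polymerase gene wisp read 273.9, 351.8 and 346.9 against 931.3, 728.3 and 1012 (log2 -1.45 ± 0.13, adjusted p = 7.7e-09). Transcripts of gnu, a subunit of the kinase that drives egg activation, differed by log2 -1.36 ± 0.12 and those of the RNA-binding repressor pum by -1.17 ± 0.12. The member called higher was brat, a partner of pum (log2 0.58 ± 0.17, adjusted p = 0.016). It lost that call under median, ribosomal protein or poly-A centring and on the deposited scale, where 0 members were called higher. Leaving out diploid late cycle 14 replicate 2, or haploid late cycle 15 replicate 1 or 3, also ended it (over the 6 omissions log2 0.54 to 0.65, adjusted p up to 0.066). The members called lower include both activators and repressors of translation.

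Germ line transcripts in these whole embryos come from the egg and from the pole cells at its posterior end. Of 14 measured members 7 were called lower and 0 higher, against 14.2% and 11.2% of all genes (median log2 -0.64 relative to all genes). Besides osk the lower members included otu, a deubiquitinase of oogenesis, at 88.7, 89.7 and 83.5 in haploids and 255.5, 292.9 and 311.2 in diploids (log2 -1.71 ± 0.15, adjusted p = 4.5e-09). Also lower were gcl, needed for pole cell formation (log2 -0.81 ± 0.10), and wun2, a lipid phosphatase that guides germ cells (log2 -0.76 ± 0.09). The groups did not overlap for any of these genes. The maternal linker histone gene BigH1, which packs chromatin before zygotic transcription, read 232.7, 267.6 and 277.1 against 466.5, 526.2 and 534.8 (log2 -0.98 ± 0.10, adjusted p = 3.4e-08).

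Among glycolytic enzymes, 6 of 9 measured members were called lower in haploids and 0 higher (median log2 -0.72 relative to all genes). Of all genes 14.2% were called lower and 11.2% higher, and of those above background on at least 3 of the 6 arrays 22.5% and 18.3%. Transcripts of Hex-A, the hexokinase at the entry of the pathway, read 21.7, 31.2 and 18.1 in haploids, below background on all 3 arrays. In diploids they read 130.1, 145.8 and 169.5, at least 4.62-fold higher (adjusted p = 6.8e-12). A difference given as "at least" sets the brighter mean against the background intensity. Gapdh1 read 135.9, 144.0 and 103.2 against 352.9, 324.1 and 369.7 (log2 -1.46 ± 0.14, adjusted p = 1.4e-08). Pfk differed by log2 -1.07 ± 0.14 and Eno by -0.71 ± 0.12. Tpi was above background on 1 haploid and 3 diploid arrays, with 23.8, 38.2 and 23.4 against 120.2, 89.5 and 162.1. The aldolase gene Ald1 (log2 -0.41 ± 0.15, adjusted p = 0.049) lost its call when any of 5 of the 6 arrays was left out.

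**Figure D1:**
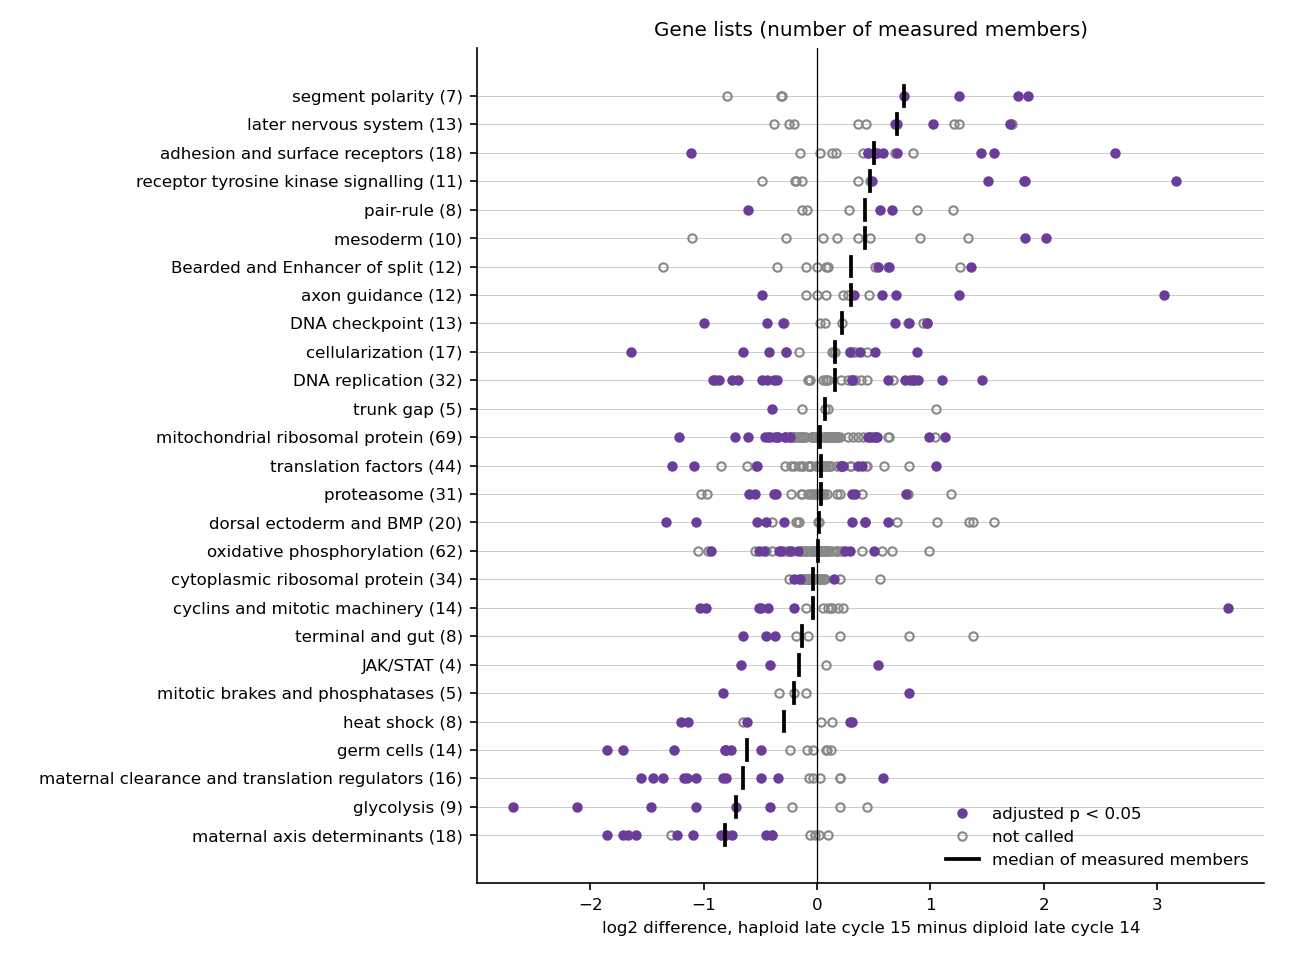
Log2 difference (haploid late cycle 15 minus diploid late cycle 14) on the x axis for every measured member of 27 gene lists on the y axis, with the number of measured members in brackets. Filled points passed the adjusted p threshold, open points did not, and the black bar is the list's median, which runs from -0.81 in maternal axis determinants to 0.77 in segment polarity genes.

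Segment polarity genes act after the pair-rule genes to fix the fronts and backs of segments. Of 7 measured members 4 were called higher in haploids and 0 lower, against 11.2% and 14.2% of all genes, with a median of log2 0.75 relative to all genes. The Hedgehog effector gene ci, on chromosome 4, read 2484, 2104 and 2264 in haploids and 1030.0, 973.2 and 868.8 in diploids (log2 1.25 ± 0.23, adjusted p = 2.3e-04). The Wingless antagonist gene nkd read 677.2, 512.1 and 599.6 against 196.7, 147.6 and 179.8 (log2 1.77 ± 0.37, adjusted p = 9.1e-04). Both had groups that did not overlap, and both kept their call with each array left out and under each scaling. The list also holds the Golgi kinase gene fj, which is not a classical segment polarity gene. Its call (log2 1.86 ± 0.66) and that of the Hedgehog receptor gene ptc (log2 0.77 ± 0.26) were lost whichever array was left out. Over the omissions fj was at log2 1.71 to 2.04 and ptc at 0.69 to 0.81. Leaving out any array, or using any other scaling, thus left 2 members called. The remaining 3 members were below background on all 6 arrays.

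The earlier tiers of the segmentation cascade held calls in both directions. Over all genes 11.2% were called higher and 14.2% lower, and over those above background on at least 3 of the 6 arrays 18.3% and 22.5%. Of 5 trunk gap genes, 0 were called higher and only hb was called lower (median log2 0.05 relative to all genes). Of 8 pair-rule genes, 2 were called higher and 1 lower. Transcripts of prd read 682.0, 607.5 and 596.4 in haploids and 382.6, 366.6 and 449.8 in diploids (log2 0.66 ± 0.13, adjusted p = 7e-04). Those of eve were at log2 0.56 ± 0.16, and the call was lost without diploid late cycle 14 replicate 2 (0.46) or haploid late cycle 15 replicate 3 (0.44). The nuclear receptor gene ftz-f1 was lower (log2 -0.61 ± 0.13). On the deposited scale and with poly-A centring neither prd nor eve was called. Of 8 terminal and gut genes 3 were called lower, namely fog (log2 -0.65 ± 0.10), which encodes the secreted signal for gastrulation, cad, and tll. The call for tll (log2 -0.37 ± 0.11) was lost without diploid late cycle 14 replicate 3 (-0.25) or haploid late cycle 15 replicate 3 (-0.32). Without diploid late cycle 14 replicate 3 fog alone was called.

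Some markers of the developing nervous system were higher in haploids. Of 13 measured members 4 were called higher and 0 lower, against 11.2% and 14.2% of all genes, with a median of log2 0.69 relative to all genes, and 6 were below background on all 6 arrays. Transcripts of elav, an RNA-binding protein of neurons, read 865.9, 765.5 and 854.5 in haploids and 272.7, 239.0 and 251.8 in diploids. The lowest haploid array was well above the highest diploid one (log2 1.70 ± 0.21, adjusted p = 9.7e-07). The neuroblast genes pros (log2 1.02 ± 0.29) and mira (log2 0.69 ± 0.09) and the proneural gene ac (log2 0.71 ± 0.14) were also higher. The call for pros was lost without haploid late cycle 15 replicate 1 (0.94). On the deposited scale 2 members were called higher, and with poly-A centring 1. Summed over the list, intensity was 3621 to 4124 in haploids and 1981 to 2081 in diploids. Of 7 measured markers of later muscle and blood, 0 were called and 5 were below background on all 6 arrays, with sums of 125.2 to 164.3 and 117.8 to 165.6.

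Adhesion molecules and surface receptors join cells of the forming epithelium and carry signals between them. Of 18 measured members 10 were called higher in haploids and 1 lower, against 11.2% and 14.2% of all genes and 18.3% and 22.5% of those above background on at least 3 of the 6 arrays, with a median of log2 0.49 relative to all genes. The integrin subunit gene mew read 388.4, 308.9 and 273.5 in haploids and 55.0, 63.9 and 39.6 in diploids, with no overlap (log2 2.63 ± 0.74, adjusted p = 0.011). Its call was lost without diploid late cycle 14 replicate 3 (2.43) or haploid late cycle 15 replicate 1 (2.49), where the largest adjusted p was 0.055. The scaffold gene sdt, which organises the apical side of epithelial cells, read 1588, 1280.0 and 1453 against 623.4, 458.3 and 503.9 (log2 1.45 ± 0.17, adjusted p = 4.1e-07). Nrt (log2 0.71 ± 0.22) lost its call when any of 4 arrays was left out. The member called lower was kek5 (log2 -1.11 ± 0.16, adjusted p = 1e-05). With poly-A centring or on the deposited scale 1 member was called higher, and with median centring 6, as also without haploid late cycle 15 replicate 1.

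Receptor tyrosine kinase signalling showed 5 higher and 0 lower of 11 measured members, against 11.2% and 14.2% of all genes and 18.3% and 22.5% of those above background (median log2 0.46 relative to all genes). The growth factor gene Pvf1 read 320.2, 295.1 and 263.5 in haploids and 43.5, 21.0 and 37.4 in diploids, where 2 of 3 arrays were above background (log2 3.17 ± 0.17, adjusted p = 1.4e-12). The EGF receptor inhibitor gene aos read 139.4, 73.8 and 104.0 against 33.0, 40.7 and 34.8 (log2 1.51 ± 0.34, adjusted p = 0.0017). The EGF-like ligand gene spi (log2 0.49 ± 0.13) lost its call without diploid late cycle 14 replicate 3 (0.43). The fibroblast growth factor receptor gene htl (log2 1.84 ± 0.56) lost its call when any of 3 arrays was left out, and the inhibitor gene sty (1.83 ± 0.65) when any of 5 was. Of 12 axon guidance genes 5 were called higher and 1 lower, against the same shares. In that list the netrin receptor gene unc-5 read 435.2, 348.0 and 371.3 against 176.4, 176.2 and 134.2 (log2 1.25 ± 0.30, adjusted p = 0.0029). With poly-A centring 1 member of each list was called higher. Leaving out 1 array at a time gave 2 to 5 higher in the kinase list, lowest without diploid late cycle 14 replicate 3, and 3 to 5 in the guidance list, lowest without diploid late cycle 14 replicate 1 or 3 or haploid late cycle 15 replicate 1.

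The sex determination switch Sxl, which embryos transcribe early according to their X chromosomes, read 5595, 5154 and 4938 in haploids and 2564, 3099 and 2649 in diploids (log2 0.92 ± 0.16, adjusted p = 1.2e-04). Its groups did not overlap, and the call held with each array left out and under each scaling. The male dosage compensation gene msl-3 was lower (log2 -1.05 ± 0.19, adjusted p = 1.4e-04), and the helix-loop-helix gene da, an activator of Sxl, was higher (log2 0.62 ± 0.08, adjusted p = 3.9e-06, lost on the deposited scale and with poly-A centring). In the list of sex determination and dosage compensation genes as a whole, 4 of 19 were called higher and 3 lower, which is near the shares of 18.3% and 22.5% among genes above background.

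Genes of cellularization and of BMP signalling, the pathway that patterns the dorsal side, were called in both directions. Their shares were near those of all genes above background. Examples called lower in the haploid embryos come first. The cellularization gene nullo, which stabilises the furrows between nuclei, read 169.4, 276.5 and 204.0 in haploids and 577.4, 687.8 and 728.6 in diploids (log2 -1.64 ± 0.12, adjusted p = 4.5e-10). The BMP ligand gene scw read 696.5, 935.7 and 767.4 against 1889, 2045 and 2070.0 (log2 -1.33 ± 0.09, adjusted p = 4.4e-11). The BMP receptor gene sax read 740.7, 759.2 and 650.7 against 1486, 1461 and 1552 (log2 -1.07 ± 0.07, adjusted p = 3.7e-11). None of these genes had overlapping groups.

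Their lists held calls in both directions. Over all genes 11.2% were called higher and 14.2% lower, and over those above background on at least 3 of the 6 arrays 18.3% and 22.5%. Of 17 cellularization genes 4 were called higher and 4 lower, with a median of log2 0.14 relative to all genes. Without diploid late cycle 14 replicate 3 or haploid late cycle 15 replicate 3, 2 were called lower. The adaptor gene Traf4, which acts in epithelial morphogenesis, was among the higher ones (log2 0.88 ± 0.12, adjusted p = 4.8e-06). Of 20 dorsal ectoderm and BMP genes 4 were called higher and 5 lower, with a median of 0 relative to all genes, and 2 were higher without haploid late cycle 15 replicate 1 or 3. The amnioserosa regulator zen was lower (log2 -0.53 ± 0.08) while the tumour necrosis factor ligand gene egr was higher (log2 0.63 ± 0.12, lost with poly-A centring). On the neurogenic ectoderm list, 3 of 6 genes were called higher and 2, zen2 and D, lower. Without haploid late cycle 15 replicate 1, 1 was called higher. The proneural gene l(1)sc read 176.3, 129.9 and 129.3 against 32.8, 47.1 and 27.0, with 2 of 3 diploid arrays above background (log2 2.05 ± 0.16, adjusted p = 1.2e-09). The SoxB gene D was lower (log2 -0.44 ± 0.10, lost with poly-A centring).

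**Figure D2:**
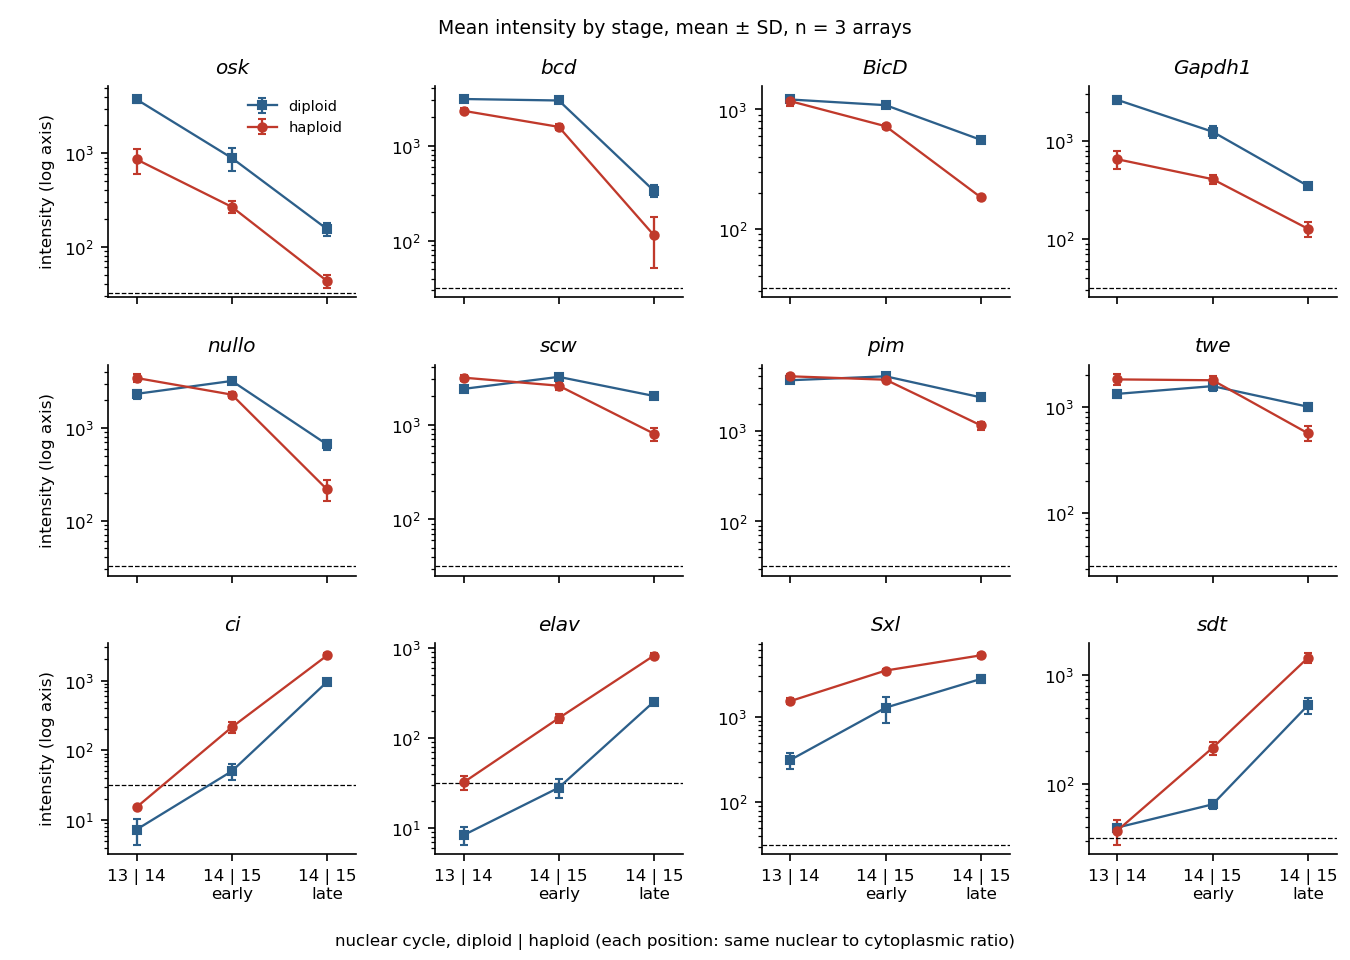
Mean intensity (log y axis, error bars SD, n = 3 arrays) of 12 genes at the 3 stages of each genotype, with stages of the same nuclear to cytoplasmic ratio at the same x position. Diploids are blue squares, haploids red circles and the dashed line is background. At the last position osk, bcd, BicD, Gapdh1, nullo, scw, pim and twe were lower in haploids and ci, elav, Sxl and sdt higher.

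The plot of stage levels places these late differences in each gene's course. The mean intensity of osk was 3776, 890.4 and 154.3 over the 3 diploid stages and 860.1, 266.8 and 42.8 over the 3 haploid stages, so haploids were lower at every matched stage. The mean of nullo was 2347, 3237 and 664.6 in diploids and 3484, 2302 and 216.6 in haploids. For nullo the haploid mean was thus above the diploid one at the first matched stage and below it at the last. Transcripts of ci were at 7.38, 50.4 and 957.4 in diploids and at 15.4, 214.9 and 2284 in haploids. The first of these levels were below background in both genotypes.

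Cell cycle genes that drive or time mitosis were called in both directions. Of 14 measured cyclins and mitotic genes 6 were called lower and 1 higher, with a median of log2 -0.04 relative to all genes. Of all genes 14.2% were called lower and 11.2% higher, and of those above background on at least 3 of the 6 arrays 22.5% and 18.3%. The securin gene pim, which acts in the separation of sister chromatids, read 1029, 1255 and 1166 in haploids and 2285, 2181 and 2579 in diploids (log2 -1.03 ± 0.07, adjusted p = 1.1e-10). The G1 cyclin gene CycD read 359.8, 432.6 and 375.0 against 747.5, 767.7 and 787.2 (log2 -0.98 ± 0.08, adjusted p = 3e-09). The separase subunit gene thr differed by log2 -0.51 ± 0.07 and the mitotic cyclin gene CycB by -0.49 ± 0.06. From the list of mitotic brakes and phosphatases, the Cdc25 gene twe, a maternal activator of mitosis, read 466.6, 642.9 and 582.8 against 1032, 899.0 and 1069 (log2 -0.83 ± 0.11, adjusted p = 2.8e-06). Groups did not overlap for any of these 5 genes. The other call of that list of 5 was rux, an inhibitor of mitotic cyclins, which was higher (log2 0.81 ± 0.25, adjusted p = 0.021). It lost the call when any of 4 arrays was left out.

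The cyclins and mitotic gene called higher was gammaTub37C, the maternal gamma tubulin that nucleates microtubules at centrosomes and spindles. It read 725.6, 868.2 and 654.0 in haploids and 57.4, 71.0 and 52.7 in diploids. This was the largest measured rise of any gene above background on all 6 arrays (log2 3.63 ± 0.13, 12.4-fold, adjusted p = 8.4e-15). Its mean was 1161 and 1175 at the earlier haploid stages and 88.4 and 75.7 at the earlier diploid stages, so the genotypes stood apart throughout.

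Checkpoint and replication genes were called in both directions. The gene of the Chk1 kinase, grp, which slows the last syncytial divisions, read 651.6, 695.9 and 653.0 in haploids and 1409, 1274 and 1312 in diploids (log2 -1.0 ± 0.08, adjusted p = 1.5e-09). The gene of the Chk2 kinase, lok, read 572.8, 581.7 and 552.0 against 338.0, 331.0 and 305.1 (log2 0.81 ± 0.10, adjusted p = 1.1e-06), which poly-A centring took below the threshold. Both kinase genes had separate groups, in opposite directions. Also higher were the ATM kinase gene tefu (log2 0.97 ± 0.17) and the break repair gene rad50 (0.97 ± 0.14). In all 4 of 13 checkpoint genes were called higher and 3 lower, against 11.2% and 14.2% of all genes. Among genes above background on at least 3 of the 6 arrays, the shares were 18.3% and 22.5%. With poly-A centring 0 checkpoint genes were called higher and 3 lower.

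Of 32 measured replication genes 10 were called higher and 9 lower, against 11.2% and 14.2% of all genes. Among genes above background on at least 3 of the 6 arrays, the shares were 18.3% and 22.5%. The origin recognition gene Orc2 read 121.6, 130.7 and 111.6 in haploids and 39.0, 49.4 and 43.9 in diploids (log2 1.46 ± 0.27, adjusted p = 2.6e-04). The clamp loader gene RfC4 read 303.5, 261.5 and 305.1 against 137.5, 130.5 and 136.1 (log2 1.1 ± 0.13). On the other side, the GINS subunit gene Psf1 read 157.6, 212.6 and 162.9 against 343.7, 323.3 and 332.6 (log2 -0.92 ± 0.14), and Mcm10 differed by log2 -0.90 ± 0.10. Subunits of the same complex thus lay on opposite sides, as with Psf3 (log2 0.89 ± 0.13) beside Psf1. The number called higher was 2 with poly-A centring and 4 on the deposited scale, while 9 were called lower in both.

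Lists of genes that every cell uses had medians near 0. Of 34 cytoplasmic ribosomal protein genes 1 was called higher and 2 lower (RpLP0, RpS5b and RpS21), with a median of log2 -0.04 relative to all genes. Each of these 3 calls was lost when any of at least 3 arrays was left out. Of 62 oxidative phosphorylation genes 3 were higher and 7 lower (median -0.01), of 31 proteasome genes 3 and 4 (median 0.02), and of 44 translation factors 6 and 3 (median 0.02). Without haploid late cycle 15 replicate 1, 4 oxidative phosphorylation genes were lower. Without haploid late cycle 15 replicate 3, 3 translation factors were higher. Without that array, or diploid late cycle 14 replicate 1 or 3, 0 proteasome genes were higher. Among 69 mitochondrial ribosomal protein genes 7 were called higher and 12 lower, and mRpL18 (log2 1.13) and mRpL2 (log2 -1.22) lay furthest apart. These shares compare with 11.2% higher and 14.2% lower over all genes. Among the 5921 genes above background on at least 3 of the 6 arrays, the shares were 18.3% and 22.5%.

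**Figure D3:**
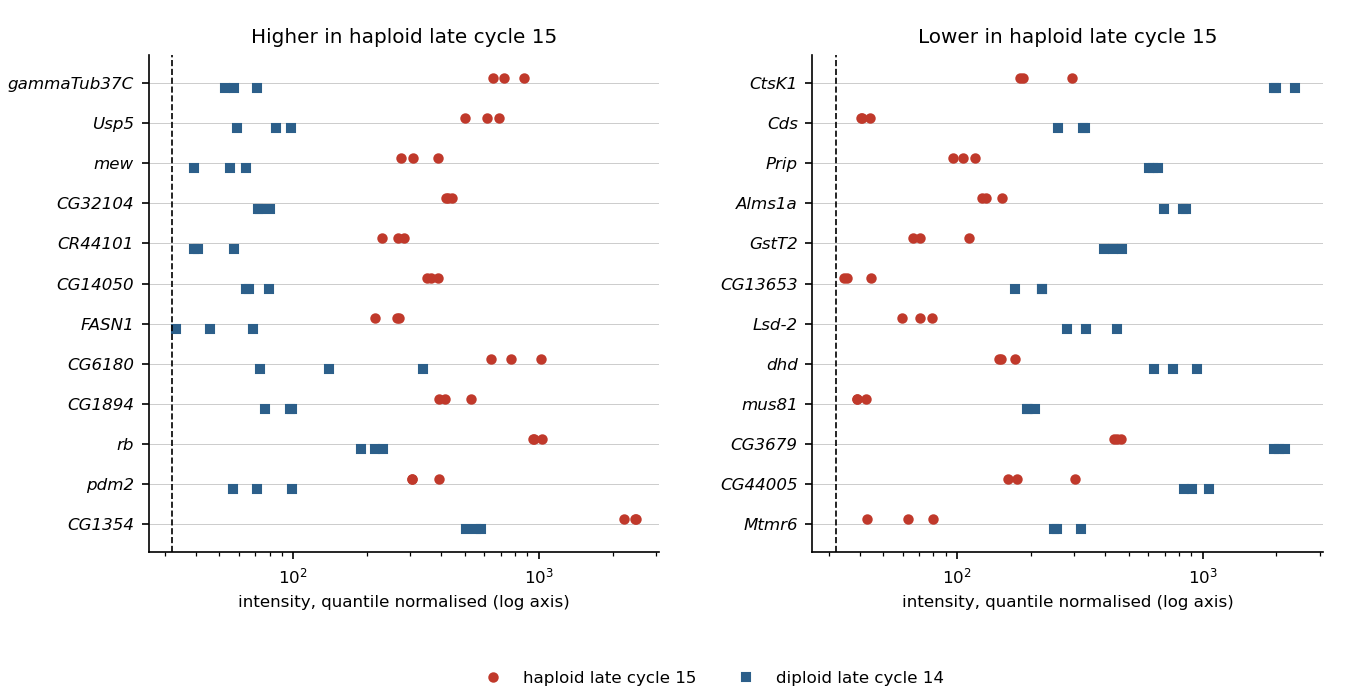
Intensity on each array (log x axis) for the 12 genes with the largest measured rise (left) and the 12 with the largest fall (right) in haploids, among genes above background on all 6 arrays. Red circles are haploid late cycle 15 arrays, blue squares diploid late cycle 14 arrays and the dashed line is background; in no gene did the groups overlap.

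The plot of the largest differences shows genes from several pathways. After gammaTub37C came the deubiquitinase gene Usp5, at 687.8, 616.9 and 502.8 in haploids and 59.0, 85.3 and 97.9 in diploids (log2 2.92 ± 0.18, adjusted p = 1.2e-11). The fatty acid synthase gene FASN1 read 268.4, 214.8 and 263.8 against 33.3, 68.5 and 45.7 (log2 2.40 ± 0.21). The gene rb, which encodes a subunit of the AP-3 vesicle coat, read 1027, 960.0 and 948.2 against 231.6, 187.9 and 216.2 (log2 2.21 ± 0.13). The POU-domain factor gene pdm2 was at 392.3, 305.9 and 304.0 against 99, 56.5 and 71.4 (log2 2.17 ± 0.36). The other members of the 12 were mew and CG32104, CR44101, CG14050, CG6180, CG1894 and CG1354, at log2 2.13 to 2.63. CG6180 was the most variable, with 73.5, 337.6 and 139.6 on the diploid arrays.

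Among genes above background on all 6 arrays, the largest fall was that of CtsK1, which encodes a cathepsin protease, at 180.0, 295.1 and 185.8 in haploids and 1948, 2374 and 1996 in diploids (log2 -3.29 ± 0.15, 9.78-fold, adjusted p = 1.2e-13). The phospholipid synthesis gene Cds read 44.0, 40.4 and 41 against 333.4, 257.6 and 326.2 (log2 -2.86 ± 0.13). Genes of lipid and water handling also included the lipid droplet protein gene Lsd-2 (log2 -2.33 ± 0.15) and the water channel gene Prip (log2 -2.57 ± 0.12). The maternal thioredoxin gene dhd, needed to unpack sperm chromatin at fertilisation, read 151.2, 147.5 and 172.0 against 636.7, 759.7 and 952.9 (log2 -2.30 ± 0.15, adjusted p = 5.2e-11). The DNA repair endonuclease gene mus81 read 39.3, 39.1 and 42.4 against 194.3, 192.0 and 207.5 (log2 -2.30 ± 0.09). Completing the 12 were the centrosome gene Alms1a, the glutathione transferase gene GstT2, the phosphatase gene Mtmr6, and CG13653, CG3679 and CG44005, at log2 -2.18 to -2.54.

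A smaller number of genes were above background in 1 group only. In haploids 30 of the 1121 higher genes rose from below background on all 3 diploid arrays, and 60 of the 1428 lower genes fell to below it on all 3 haploid arrays. The cytochrome P450 gene Cyp28a5 read 115.0, 118.2 and 215.4 in haploids and at most 8.82 in diploids, at least 4.48-fold higher. The receptor gene mthl8 (at least 3.60-fold) and the immunoglobulin-family adhesion gene rst (at least 3.36-fold) behaved alike, as did CG9380 (4.29), CG43064 (3.20) and CG30460 (3.04). In the other direction CG12643 read 491.1, 505.1 and 578.0 in diploids and at most 13.3 in haploids, at least 16.4-fold lower. Its mean was 789 and 551 at the earlier diploid stages and 14.0 and 5.42 at the earlier haploid stages, so it was below background in haploids throughout. Besides Hex-A, the others were CG4586 (at least 6.90-fold lower), CG42598 (3.38), CG5567 (3.27) and qua (3.14), which encodes an actin-bundling protein of nurse cells.

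Genes that changed over an earlier step, measured on arrays that are not part of the late comparison, were called at other rates than the rest. Of 327 genes that rose at least 2-fold from diploid cycle 13 to early cycle 14, 30.3% were called higher and 5.5% lower in late haploids. Of 630 genes that fell in that step, 22.7% were higher and 17.9% lower. Among the 9078 others, 9.68% were higher and 14.3% lower. Among genes above background on at least 3 of the 6 arrays, 34.4% of 282 rises were higher and 6.38% lower. Of 488 falls above background 28.7% were higher and 19.5% lower, and of 5151 others 16.5% and 23.6%. The falls were thus called lower more often than the others over all tested genes and less often among those above background. When the classes were made from the haploid step, cycle 14 to early cycle 15, the pattern differed for the falls. Of 351 genes that rose in that step 33.0% were higher and 1.42% lower, and of 383 that fell 7.83% were higher and 34.5% lower. Among those above background the shares were 37.7% and 1.62% for rises, and 11.7% and 40.6% for falls. These shares were not tested. The GAPDH 3' control averaged 965.2 in diploid cycle 13 and at most 151.6 in the other groups, and its part in the diploid classes was not tested. With poly-A centring 28 of the 327 diploid rises were called higher, in place of 99, and on the deposited scale 49.

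**Figure D4:**
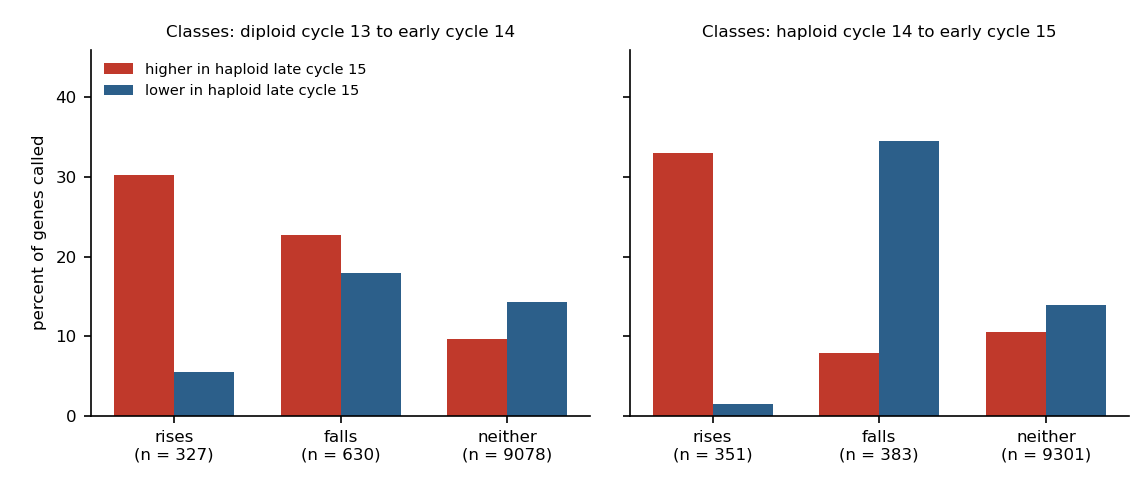
Percent of genes (y axis, from 0) called higher (red) or lower (blue) in haploid late cycle 15 against diploid late cycle 14, for all tested genes, dim ones included, sorted by an earlier step on other arrays. Left, classes from diploid cycle 13 to early cycle 14; right, classes from haploid cycle 14 to early cycle 15, where 33.0% of rises were called higher and 34.5% of falls lower.

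The same comparison 25 min earlier, haploid early cycle 15 against diploid early cycle 14, shares no array with the late one. At that stage 3161 of 10035 genes (31.5%) were called. Over 4826 genes above background on all 12 arrays, the late and early differences correlated at r = 0.492 across genes, which are not independent replicates. Of 2154 genes called late among these, 1277 were also called early, 1069 in the same direction and 208 in the opposite one. Of 366 genes at least 2-fold apart late, 113 were so early in the same direction (30.9%, or 27.9% of the 405 at least 2-fold apart early).

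A test of the difference between the late and early contrasts called 1785 of 10035 genes (17.8%), 806 higher and 979 lower late. The direction of this split depended on scaling: over probe sets 45.1% of these calls were higher under quantile scaling and 87.2% on the deposited scale. The late minus early differences of the genes named next kept their direction under each of the 4 other scalings. The late and early values given are those of quantile scaling. Among genes above background on all 12 arrays, the largest positive difference was that of stas, with log2 1.1 ± 0.15 late and -1.92 ± 0.15 early (difference 3.02 ± 0.21, adjusted p = 4.8e-09). Its late arrays read 275.2, 219.1 and 260.7 in haploids and 105.8, 127.6 and 117.2 in diploids, while the early means were 146.7 and 556.6. The mitochondrial outer membrane gene Miga was likewise higher late (log2 0.75 ± 0.16, lost on the deposited scale and with poly-A centring) and lower early (-1.68 ± 0.16). So were CG17328 and the zinc transporter gene Zip99C, at log2 1.46 and 1.12 late and -1.03 and -1.33 early. The branched-chain amino acid transaminase gene Bcat and the mesodermal factor gene Mes2 were higher late, at log2 2.06 and 2.02, and at -0.32 and -0.37 early, short of the threshold.

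Among the same genes, the largest negative difference was that of CG13653, at log2 -2.42 ± 0.22 late and 0.59 ± 0.22 early (difference -3.01 ± 0.31, adjusted p = 4.2e-07). Its mean was 107.5 in haploids and 71.2 in diploids early, and 38.3 and 204.7 late. CG4497 and CG11035 were also lower late (log2 -1.66 and -1.43) and, under quantile scaling, higher early (0.56 and 0.50). Over the scalings the differences of CG13653, CG4497 and CG11035 between the stages shrank to -2.08, -1.35 and -1.09. Their late values stayed at or below -2.06, -1.37 and -1.16 under every alternative. Little or none of their early excess in haploids was thus left under some scaling. CG4935 and CG14352 were lower late (log2 -1.81 and -1.99) and not called early. The Wnt inhibitor gene Notum had a called difference (log2 -2.08 ± 0.61, adjusted p = 0.021) although neither stage was called alone (-1.01 ± 0.43 late, adjusted p = 0.11).

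**Figure D5:**
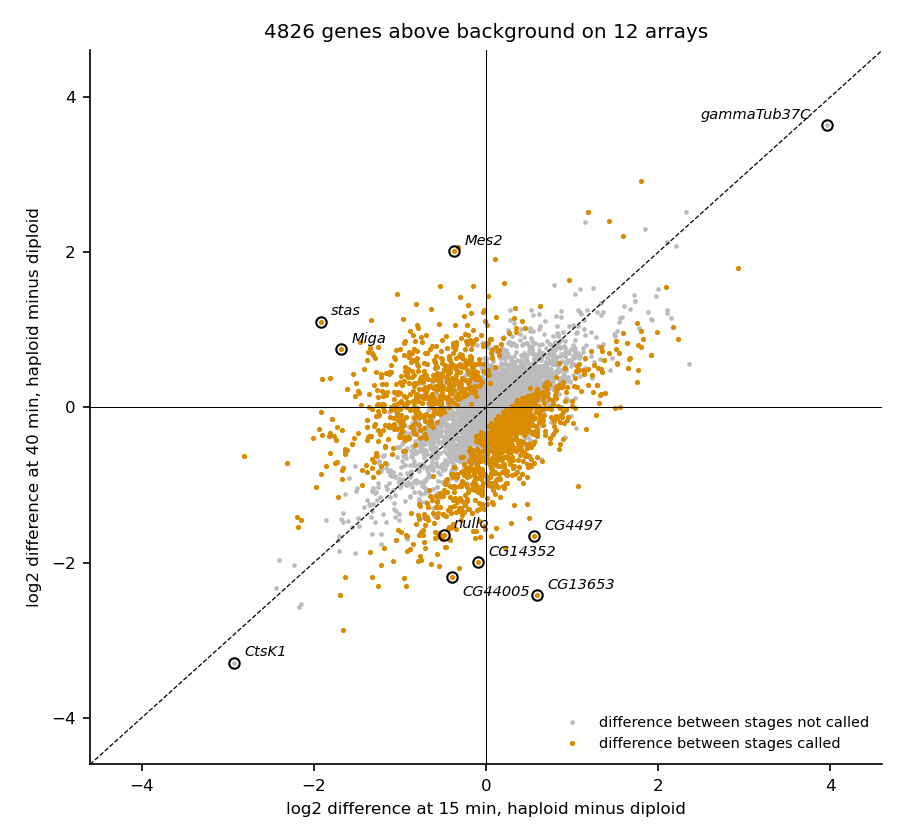
Log2 difference between haploids and diploids at 40 min (y axis) against that at 15 min (x axis) for the 4826 genes above background on all 12 arrays, each point 1 gene. Orange points had a called difference between the stages, the dashed line marks equal differences, and 10 genes are labelled, among them stas at 3.02 above the line and CG13653 at 3.01 below it.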

How the data were processed

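RNA of staged whole embryos was hybridised to Affymetrix arrays in 6 groups of 3, and 6 of the 18 arrays form the late comparison. The deposited values are linear intensities made by the authors with MAS5, per the submitters' processing notes. Neither its version nor its scaling is given in the sources used here.

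All arrays were quantile normalised, floored at 0.1 and log2 transformed. Of 18769 probe sets that are not controls, 14560 with at least 3 arrays at an intensity of 12 or more were tested. Background, 31.95, is the 95th percentile over 20 negative controls on all arrays. One model of 6 group means was fitted to the 18 arrays with limma (version 3.58.1, R 4.3.3, intensity trend), adjusted by Benjamini-Hochberg and called at 0.05. Errors of log2 differences are standard errors, and those of intensities are SDs over n = 3. The number of arrays limits the precision. In a simulation of this comparison with 14560 probe sets, 40% of 100 probe sets changed 2-fold and 50% of 100 changed 4-fold were recovered. The changed probe sets were drawn from all tested ones, dim ones included, and were far fewer than the 3058 called in the data. These shares therefore do not give the recovery in the data or among genes above background.

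The platform annotation, with symbols updated through RefSeq (13544 of 13647 matched), named a single gene for 13647 probe sets, while 402 had several and 4720 had none. A gene's value is its brightest tested probe set with a single symbol.

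The comparison and the 43 gene lists were chosen with earlier results of these data known. Lists are described by counts and medians, with no test. Named genes are the 12 largest differences in each direction among called genes above background on all 6 arrays, the 6 largest bounds in each direction, up to 4 called members of a list, and the 6 largest called differences between stages in each direction among genes above background on all 12 arrays. The list members CycB, Psf3, brat, tor, grk, exu, Tpi, Pvf1 and l(1)sc were named after their values were seen. Alternatives were the deposited scale, centring on the median, on ribosomal protein genes or on poly-A controls, a floor at 16, other filters, no intensity trend, a replicate block, the 6 arrays alone and each array left out. Replicate numbers did not pair the samples: same-numbered deviations correlated at 0.042, 0.012 and -0.016.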

Additional observations from a re-analysis of the deposited data

Results flagged for a closer look

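Of the genes named for the size of a difference, 28 had a called change between 15 and 40 min in the difference between haploids and diploids. The test was that of the late minus the early contrast (limma, adjusted p below 0.05), which called 17.8% of all 10035 genes. Of the 28, stas, CG17328, Zip99C, Miga, Bcat, Mes2, CG13653, CG4497, Notum, CG4935, CG11035 and CG14352 were named because this test called them. Their calls were thus fixed in advance. The others were named by their late difference, which is part of the tested value. All values here are log2. Higher late than early were stas (3.02), CG17328 (2.49), Zip99C (2.45), Miga (2.43), Bcat (2.38), Mes2 (2.38), CR44101 (1.33), Usp5 (1.12), FASN1 (0.96) and rb (0.62). Lower late than early were CG13653 (-3.01), CG5567 (-2.40), CG4497 (-2.21), CG4586 (-2.21), Notum (-2.08), CG4935 (-2.03), CG11035 (-1.93), CG14352 (-1.90), CG44005 (-1.79), Hex-A (-1.67), qua (-1.42), dhd (-1.37), CG3679 (-1.24), Cds (-1.20), CG42598 (-1.06), mus81 (-1.05), Mtmr6 (-0.86) and GstT2 (-0.73). The last 2 changed direction under another scaling, reaching 0.16 for Mtmr6 and 0.09 for GstT2, and the other 26 kept it under all 4. Members named only through a gene list are not counted here.

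The control probe set in the central part of 18S ribosomal RNA, which no comparison uses, had a mean intensity of 986.6 in haploid late cycle 15 embryos (653.6 to 1173) against 342.3 in diploid late cycle 14 embryos (298.7 to 388.4). The groups did not overlap. Nor did they for the 18S 5' control (68.88 to 223.2 against 39.54 to 41.76). For the 18S 3' control they did (142.7 to 412.0 against 124.1 to 166.3).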

How the results depend on the processing

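Of 46 genes named by size and called, 44 kept direction and call under all 17 alternatives. The exceptions were mew, lost on the deposited scale, with poly-A centring and with 1 of 2 arrays left out, and Miga, lost on the deposited scale and with poly-A centring. Of 123 list members named by the rule, 60 kept their call throughout and 63 lost it somewhere. RpLP0 reversed with poly-A centring, to log2 -0.01. The cause was not tested.

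The 1363 higher calls became 848 after centring on the median, 770 on ribosomal protein genes, 343 on the deposited scale and 185 with poly-A centring, where all calls fell to 1563 and those of the late minus early difference to 582. Leaving out 1 array at a time gave 2480 to 2764 late calls and 1730 to 2037 calls of the difference. Among the diploid rises, calls higher became 49 (deposited), 28 (poly-A) and 58 (ribosomal protein), and calls lower 10 (median), 8 (poly-A) and 11 (ribosomal protein). Among the diploid falls, calls higher became 54 and 36 (deposited, poly-A) and calls lower 74 (deposited). With classes at any fold the counts were 493, 350, 277 and 316, and by the haploid step 5 rises were lower and 30 falls higher. The share of probe sets above background, 38.4% to 38.5% per array after scaling, limits how many differences could be measured. The scaling makes that share alike on all arrays. With the replicate number as a block, 3078 probe sets were called against 3058, but the numbers share only a label.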

Other observations

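By chromosome arm, the share of genes called lower in late haploids ranged from 12.8% on 2L to 15.0% on X and 3R among the large arms. The share called higher ran from 9.55% on 3R to 11.7% on 3L, and was 14.0% of 1604 genes on X and 21.1% of 57 on chromosome 4. The X median was log2 0.02 relative to all genes late and -0.09 early. These shares were not tested.

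Heat shock transcripts, abundant in the egg, were called in both directions, but only the lower calls held under every scaling. Of 8 measured, 3 were called lower and 2 higher, against 14.2% and 11.2% of all genes. Among genes above background on at least 3 of the 6 arrays, the shares were 22.5% and 18.3%. Hsp26 read 151.7, 179.6 and 213.6 in haploids and 399.3, 405.1 and 437.4 in diploids (log2 -1.20 ± 0.11, adjusted p = 5.5e-09). Hsp60A (log2 -1.14 ± 0.19) and Hsp27 (log2 -0.62 ± 0.12) were the other lower members. With median or ribosomal protein centring 1 member was called higher, and with poly-A centring or on the deposited scale 0. The higher member DnaJ-1 lost its call under 10 of the 17 alternatives. The zinc finger gene Clamp, which opens chromatin in the early embryo, read 1342, 1505 and 1319 against 2608, 2644 and 2487 (log2 -0.90 ± 0.06, adjusted p = 1.9e-10), while grh, an epithelial transcription factor gene, was higher (log2 0.99 ± 0.23, lost with poly-A centring).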
